A study of Mus musculus with 2 samples.

Results

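The muscle stem cells (MuSCs) described here were the barcodes that the authors' cell table named MuSCs in 1 single-cell RNA sequencing library of regenerating mouse tibialis anterior muscle, taken 7 days after injury. They were 139 of the 3416 barcodes in that table, and 137 of them passed the limits on genes, transcripts and mitochondrial reads. The kept MuSCs made up 4.29% of the 3196 kept cells with a cell type (95% Clopper-Pearson interval 3.61 to 5.05%). The study set out to build a reference of the cell populations of injured mouse muscle, and its 2 libraries were made 2 and 7 days after myofibers were destroyed with notexin, a toxin from snake venom. The day 2 table held 3537 barcodes. The comparison for the MuSCs was with the cells that the same day 7 table named Myoblasts/Progenitors (177 barcodes, 175 kept, 5.48% of cells, 4.71 to 6.32%), and 2788 kept cells outside the myogenic and myonuclear types served as a background.

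Both libraries came from the C57Bl/6 strain with no genetic change named, and no uninjured muscle was analysed here. The labels gave both animals as 7 months old and female, whereas the authors' annotation gave 1 mouse per library, male, aged 4 months at day 2 and 7 months at day 7. The transcripts went against the female label. Over all called barcodes of day 7, 4 Y-linked genes held 4856 counts (150 CPM, counts scaled to a total of 1000000) and Xist, which is transcribed from the inactive X chromosome, held 1. The day 2 library held 6575 Y-linked counts and 5 of Xist. The MuSCs themselves held 151 Y-linked counts and 1 of Xist. The 2 filtered matrices shared 4 barcodes and the 2 cell tables shared 1, and no MuSC barcode was shared with day 2. With 1 mouse and 1 library per time there was no replicate, so no test was made. Levels carry exact Poisson, shares Clopper-Pearson and ratios exact conditional binomial 95% intervals. These intervals cover counting error only, not the spread between mice.

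MuSCs lie between the myofiber membrane and the basal lamina and are marked by Pax7, a paired-box transcription factor. After injury they activate, divide and give rise to myoblasts that exit the cell cycle, turn on Myog and fuse, while some return to quiescence. Notch signaling, the calcitonin receptor and contact with the basement membrane are known to hold MuSCs in the undifferentiated state.

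The MuSCs were shallow cells. They held 751224 unique molecular identifiers (UMIs, each a counted transcript) in all, from 1529 to 20389 per cell with a median of 4787, and a median of 1970 genes. The Myoblasts/Progenitors had a median of 10076 UMIs and the non-myogenic cells of 6745. The median mitochondrial share was 8.31% in MuSCs, 5.6% in Myoblasts/Progenitors and 4.54% in non-myogenic cells. Shares of cells with a UMI were therefore also taken after thinning every cell once to 2000 UMIs, which left out 5 MuSCs, no Myoblasts/Progenitors and 111 non-myogenic cells. The draw is random, so for the shares that matter most the average over all possible draws is given as well.

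The 4 MuSC markers Pax7, Myf5, Cdh15 and Chodl were each higher in MuSCs than in every other annotated type, with the Myoblasts/Progenitors next. The cell table's names were made from these cells' genes, so the marker levels are a description and no check of the name. Pax7 (chr4:139737062-139833528, minus strand, mm10) had 474 CPM in MuSCs (426 to 526) and 3.05 CPM in non-myogenic cells. It was detected in 121 of 137 MuSCs (88.3%), with 0 to 10 UMIs per cell and a median of 2. Non-myogenic cells had it in 1.04% at their greater depth. Detection was thus far over the background of free RNA.

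Myf5 (chr10:107482908-107486134, minus strand), the myogenic regulatory factor that acts first in the lineage, stood at 314 CPM (275 to 357) in 62.8% of MuSCs, against 1.21 CPM and 0.466% in non-myogenic cells. Cdh15 (chr8:122847966-122867397, plus strand), which encodes M-cadherin, stood at 377 CPM (334 to 423) in 77.4%, against 2.13 CPM and 1.22%. Chodl (chr16:78930948-78951733, plus strand), a membrane C-type lectin, was the most abundant of the 4 at 801 CPM (739 to 868) in 87.6% of MuSCs. Outside MuSCs and Myoblasts/Progenitors its level was highest in 48 Tenocytes, at 141 CPM, of which 25% had a UMI. The highest level of Pax7 outside both types was 23.7 CPM, on 9 counts in 76 Myonuclei (Type IIb), and then 17.0 CPM in 232 Smooth Muscle cells.

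**Figure D1:**
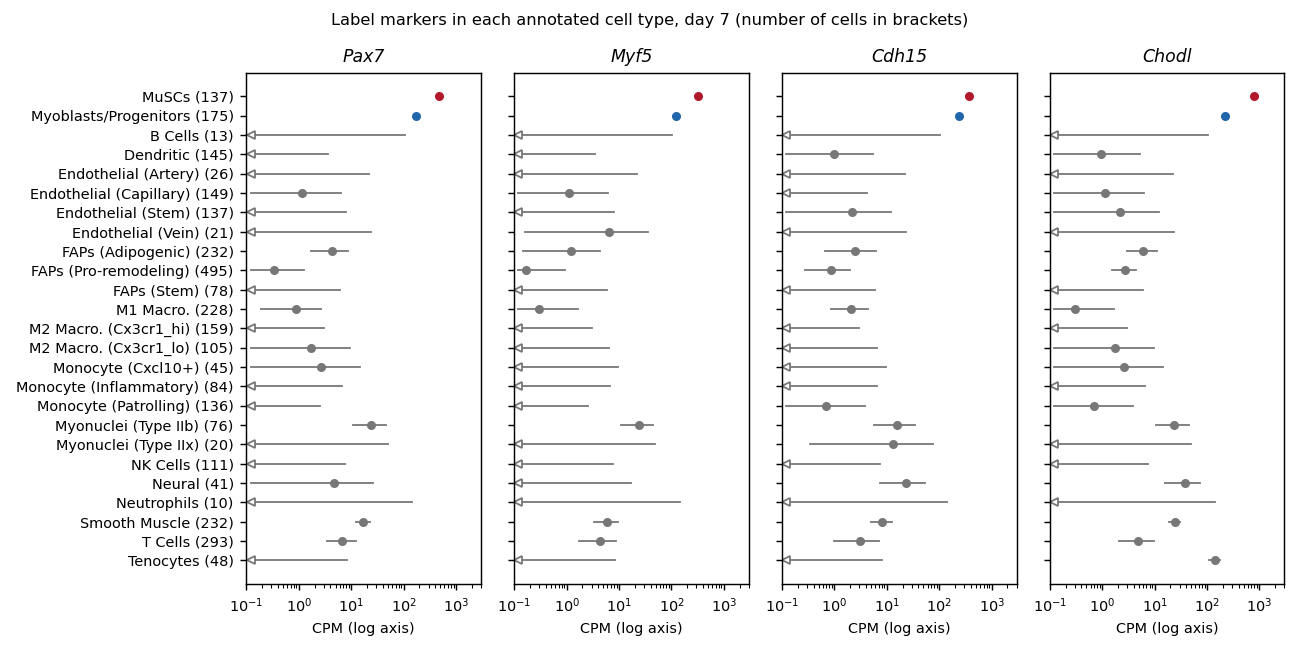
Level of Pax7, Myf5, Cdh15 and Chodl (CPM of summed counts, log axis) in every annotated cell type of the day 7 library, with the number of kept cells in brackets. Points are levels, lines are 95% Poisson intervals and open triangles mark types with no count; MuSCs (red) stand at 474, 314, 377 and 801 CPM, and Myoblasts/Progenitors (blue) at 171, 122, 240 and 222 CPM.

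Single MuSCs varied widely in these markers. A cell held 0 to 36 UMIs of the 4 together, with a median of 10, and 128 of 137 cells held at least 3. All 4 markers had a UMI in 61 cells, 3 in 46, 2 in 22, 1 in 7 and none in 1. Of the 121 Pax7-positive cells, 80 also had Myf5, 94 had Cdh15 and 108 had Chodl. Myod1, the myogenic factor of activated cells, was detected in 32 of those 121 (26.4%) and in 10 of the 16 cells with no Pax7 UMI (62.5%). After thinning these shares were 10.7% of 84 and 27.1% of 48, and 14.2% and 26.2% averaged over all possible draws. A share of cells with no UMI of a marker is not a share of cells that lack it at this depth.

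The Myoblasts/Progenitors were not 1 population by their sarcomere transcripts. The 19 adult sarcomere and myofiber genes took 0 to 1.33% of the UMIs of each MuSC. Among the Myoblasts/Progenitors, 120 cells had under 2%, no cell lay between 2 and 5%, and 55 cells had from 7.47 to 42.7%. A cut at 3%, set after seeing these values, gave a low-sarcomere range of 120 cells (median 10169.5 UMIs) and a high-sarcomere range of 55 cells (median 9325 UMIs, 0.303% mitochondrial). These are ranges of a share and not cell types, and the adult sarcomere genes that made the cut are not findings between them. The 55 high-sarcomere cells held 0 counts of Pax7, 0 of Chodl, 1 of Myf5 and 5 of Cdh15. The 120 low-sarcomere cells held Pax7 at 290 CPM, and 79.2% of them had a UMI of it.

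**Figure D2:**
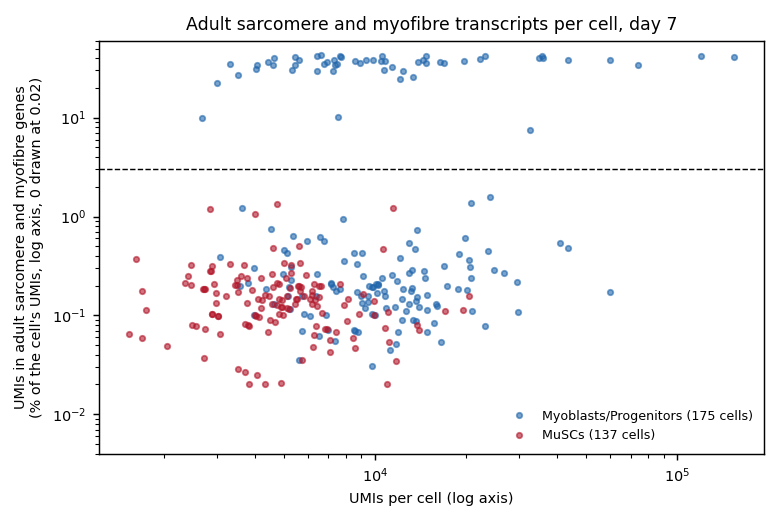
Share of each cell's UMIs in 19 adult sarcomere and myofiber genes (%, log axis, 0 drawn at 0.02) against its UMIs (log axis), for 137 MuSCs (red) and 175 Myoblasts/Progenitors (blue), with 1 point per cell. The dashed line is the 3% cut; all MuSCs lie below it, and the Myoblasts/Progenitors fall into 120 cells below and 55 above.

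Against all Myoblasts/Progenitors, 6611 genes had at least 50 counts over both sums, and 914 of them (13.8%) were at least 2-fold higher and 670 (10.1%) at least 2-fold lower in MuSCs. The whole interval lay past the fold for 175 (2.65%) and 372 (5.63%). The authors' annotation was made from these same cells' genes, so these counts describe the 2 populations and test nothing. The median log2 ratio of all 6611 genes was 0.37 when cells were scaled by total counts, and −0.13 with edgeR's TMM or median-of-ratios factors. Higher genes were 57.7% of the calls by totals, 12.9% by either of the other scalings (172 higher and 1158 lower) and 37.1% with totals taken without mitochondrial and sarcomere genes. A gene with a small positive ratio therefore turns direction between scalings, and ratios to all Myoblasts/Progenitors are to be read against the median of 0.37.

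Against the low-sarcomere range, 5825 genes had enough counts, with a median log2 ratio of −0.04. Of these 115 (1.97%) were at least 2-fold higher and 160 (2.75%) at least 2-fold lower in MuSCs. Of the 670 genes lower than in all Myoblasts/Progenitors, 75 also had enough counts and were at least 2-fold lower against the low-sarcomere range, and 572 against the high-sarcomere range. Of the 914 higher genes, 109 did so against the low range and 447 against the high range. The MuSC sum enters each of these ratios. Against the high-sarcomere range alone 52.4% of 3808 genes were higher and 21.1% lower, and against the 82 low-sarcomere cells with no UMI of Myog, Mymk or Mymx 1.45% of 4836 genes were higher and 1.26% lower.

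**Figure D3:**
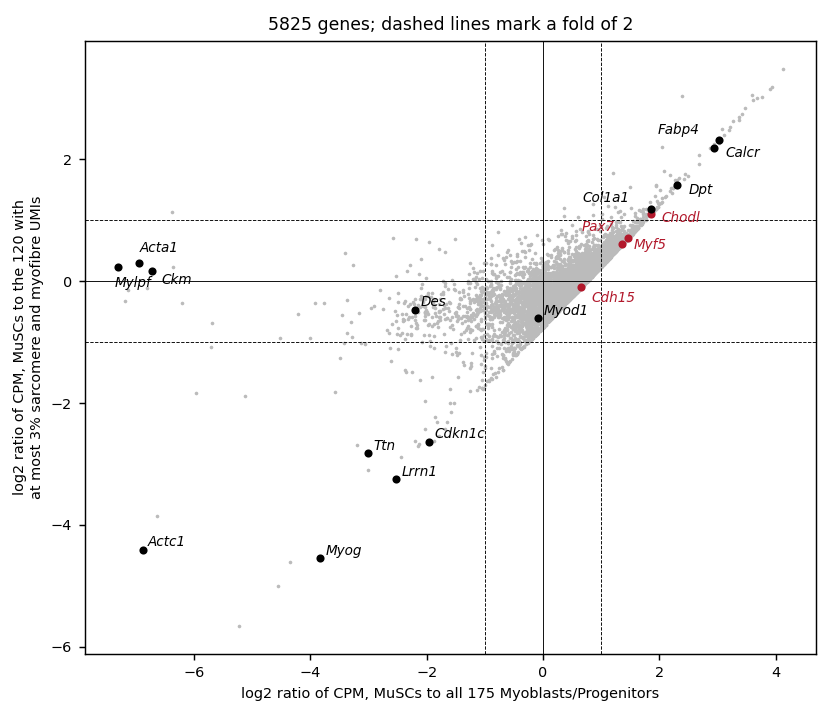
Log2 ratio of CPM of MuSCs to all 175 Myoblasts/Progenitors (horizontal) and to the 120 low-sarcomere ones (vertical), 1 point per gene over 5825 genes, with dashed lines at a fold of 2, label markers in red and other named genes in black. Both axes share the MuSC sum, and counts of 0 were taken as 3; Acta1 and Ckm lie far left at −6.94 and −6.72 but near 0 on the vertical axis, whereas Myog and Actc1 are low on both.

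The 15 genes with the smallest ratio were led by the light chain Mylpf (log2 ratio −7.31, −7.55 to −7.08), Myl1 (−7.19), the troponin Tnnc2 (−7.14) and skeletal actin Acta1 (−6.94). The others were Hspb6, Actc1, Pgam2, Smpx, Tnni2, Ckm, Apobec2, Myoz1, Tceal7, Hspb7 and Pvalb. Most are genes of the contractile apparatus and energy supply of muscle fibers. Acta1 stood at 258 CPM in MuSCs and at 230 CPM in non-myogenic cells, so its level in MuSCs was that of the background. Against the low-sarcomere range Mylpf was at 0.23 (−0.07 to 0.53) and Acta1 at 0.30 (0.03 to 0.56). Actc1 was lower than that range at −4.41 (−5.74 to −3.35). Apobec2, with 4 counts in MuSCs and 40 in the range (−2.36, −4.30 to −0.89), and Tceal7, with 1 and 10 (−7.80 to 0.45), were under the limit of 50 counts there and were not called. Pvalb, parvalbumin, was higher at 1.13 (0.28 to 1.99) on 27 counts and stood at 35.9 CPM in MuSCs and 23.1 CPM in non-myogenic cells.

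The 15 genes with the largest ratio included Fabp4, Dpt, Igfbp7, Nrp1, Sparcl1, Col1a1, Chodl, Plpp3, Gm20594, Fry, Bicc1, Hmcn2 and Slc43a3. Their log2 ratios ran from 3.03 (2.85 to 3.22) for Fabp4, a fatty acid binding protein of capillary endothelium, to 1.64 (1.27 to 2.01) for Slc43a3. Chodl was the sole label marker among them, at 1.85 (1.68 to 2.02). Fabp4, Dpt, Igfbp7, Nrp1, Sparcl1, Col1a1, Plpp3 and Hmcn2 had a higher level in non-myogenic cells than in MuSCs. Col1a1, a fibrillar collagen of fibroblasts, stood at 386 CPM in MuSCs and 7247 CPM in non-myogenic cells, and 37.2% of its MuSC counts lay in 1 cell.

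A small number of MuSCs carried much of this list. Of the 137 MuSCs 12 had at least 10 UMIs of the endothelial markers Pecam1, Cdh5, Kdr, Egfl7, Fabp4 and Ly6c1, from 31 to 310 per cell, and held 95.9% of all endothelial-marker UMIs of the MuSCs. Of these 12 cells 11 also had at least 3 UMIs of the MuSC markers, and their median depth was 7754 UMIs. They held 97.6% of the Fabp4 counts, 68.9% of Igfbp7, 66.9% of Nrp1, 54.9% of Sparcl1 and 46.1% of Plpp3. Fabp4 is 1 of the markers that picked these cells. Its share, its change without them and the 95.9% therefore follow in part from the choice. Without such cells in either group, Fabp4 went from 3.03 to 0.61 (−0.21 to 1.39). The other 4 of these genes stayed at least 2-fold higher, Igfbp7 at 1.17 (0.87 to 1.47), Nrp1 at 1.23 (0.68 to 1.77), Sparcl1 at 1.44 (1.09 to 1.78) and Plpp3 at 1.27 (0.85 to 1.68). Chodl had 8.47% of its counts in them and went from 1.85 to 1.98, Pax7 from 1.47 to 1.59, and Dpt, which encodes the matrix protein dermatopontin, from 2.31 to 2.54.

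The other label markers were closer between the groups than Chodl. Pax7 had a log2 ratio of 1.47 (1.26 to 1.68) to all Myoblasts/Progenitors and 0.71 (0.50 to 0.92) to the low-sarcomere range. Myf5 had 1.37 (1.12 to 1.62) and 0.61 (0.36 to 0.86). Cdh15 had 0.65 (0.44 to 0.85) and −0.10 (−0.31 to 0.11). Chodl had 1.85 and 1.09 (0.92 to 1.26). Against the low-sarcomere range, Chodl was the only 1 of the 4 past a fold of 2, and the interval of Cdh15 included no difference. Against the 82 low-sarcomere cells with no UMI of Myog, Mymk or Mymx 0 of the 4 were past that fold. Chodl had the largest ratio there, at 0.66.

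The wider list of MuSC identity and surface genes holds the 4 label markers, which give 3 of its 9 higher members against all Myoblasts/Progenitors and 1 of its 3 against the low range. Of its 24 members 21 had enough counts, and 9 were at least 2-fold higher and 1 lower than in all Myoblasts/Progenitors (13.8% and 10.1% of all genes), with a median log2 ratio of 0.84. With TMM factors 5 were higher and 1 lower (median 0.33). Against the low-sarcomere range 3 were higher and none lower (1.97% and 2.75% of all genes), with a median of 0.24. The largest ratio was that of Calcr, the calcitonin receptor, at 55.9 CPM (40.3 to 75.6) against 7.26 CPM and 12.3 CPM in the low range, a log2 ratio of 2.95 (2.12 to 3.83) and 2.19 (1.36 to 3.07). Calcr counts were few, 42 in 28 MuSCs, and it was at 0.501 CPM in non-myogenic cells. After thinning 11.4% of MuSCs (6.50 to 18.0%) and 1.67% of the low range (0.202 to 5.89%) had a UMI of it, and 9.76% and 3.21% averaged over all draws. The smallest ratio to all Myoblasts/Progenitors was that of Des, which encodes the muscle intermediate filament desmin, at −2.20 (−2.35 to −2.05), and it was −0.47 (−0.65 to −0.30) against the low range.

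Between these, Gpx3, a secreted glutathione peroxidase, stood at 1093 CPM and 1.63 (1.49 to 1.77) against all and 0.88 (0.74 to 1.02) against the low range. Spry1, an inhibitor of growth factor signaling linked to the return to quiescence, was at 1.24 and 0.59 (0.31 to 0.87). Vcam1, an adhesion receptor used to sort MuSCs, was detected in 89.1% of them and 18.7% of non-myogenic cells, and was at 1.04 and 0.29 (0.09 to 0.48). Itga7 (−0.09, −0.43 to 0.25), Sdc4 (−0.05, −0.29 to 0.19) and Fgfr4 (0.06, −0.24 to 0.34) had intervals that included no difference from the low range. Cd34, which endothelial cells also use, was at 1.94 against all, and 46.8% of its counts lay in the 12 cells with endothelial transcripts. Without such cells in either group it was at 1.44 (0.84 to 2.04), and against the low range with all cells at 1.18 (0.69 to 1.67).

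Myog (chr1:134289989-134292548, plus strand), the myogenic factor of terminal commitment, had 26 counts in 4 MuSCs, of which 18 lay in 1 cell. Its level was 34.6 CPM (22.6 to 50.7) against 491 CPM in all Myoblasts/Progenitors and 810 CPM (765 to 857) in the low range. The log2 ratios were −3.83 (−4.45 to −3.27) and −4.55 (−5.17 to −3.99). Without the cell of each group with the most Myog counts the first was −5.27. Myog was in 2.92% of MuSCs, 29.2% of the low range and 1.61% of non-myogenic cells, and after thinning in 1.52%, 22.5% and 0.448%.

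The fusogens had almost no counts in MuSCs. Mymk (listed as Tmem8c), the membrane protein myomaker, had 1 count in MuSCs and 124 in Myoblasts/Progenitors. Mymx (listed as Gm7325), myomixer, had 0 counts in MuSCs, 16 in non-myogenic cells (0.668 CPM) and 201 in Myoblasts/Progenitors, which made it at least 20.3-fold lower with 0 taken as 3 counts over the group and no counting error on the other side, and the 95% interval of its log2 ratio, which covers both, reached up to −4.03. Tnnt2, cardiac troponin T, which is also made in forming myotubes, had 0 and 234 counts and was at least 23.6-fold lower on the same floor, with an interval up to −4.25. At least 2 UMIs of Myog, Mymk and Mymx together were held by 2 of 137 MuSCs (1.46%, 0.18 to 5.17%), 33 of 175 Myoblasts/Progenitors (18.9%, 13.4 to 25.5%) and 10 of 2788 non-myogenic cells (0.359%). After thinning these shares were 1.52%, 14.9% and 0 of 2677, and averaged over all draws 1.46%, 13.5% and 0.0553%.

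Of the 19 genes of the commitment and fusion list, 18 had enough counts and 10 were at least 2-fold lower and 1 higher (10.1% and 13.8% of all genes), with a median of −1.53. Against the low range 6 of 15 were lower and 1 higher (2.75% and 1.97% of all genes), with a median of −0.60. The 82 low-sarcomere cells with no UMI of Myog, Mymk or Mymx lack 3 of the members by choice. Against them 9 members had enough counts, none was lower and 1 was higher (1.26% and 1.45% of all genes), with a median of 0.26. Cdkn1c, the cyclin-dependent kinase inhibitor p57, stood at 339 CPM in MuSCs and 2109 CPM in the low range, a log2 ratio of −2.64 (−2.83 to −2.45). It was also detected in 44.1% of non-myogenic cells, at 449 CPM. Without cells holding at least 3 UMIs of another type's markers, 10 MuSCs and 38 Myoblasts/Progenitors were left. The ratio of Cdkn1c to the Myoblasts/Progenitors then turned from −1.97 to 0.38, and the median of the list from −1.53 to 0.38. That filter changed the make-up of the reference. At least 3 UMIs of fibro-adipogenic progenitor markers were held by 115 of 120 low-sarcomere and 13 of 55 high-sarcomere cells, so most of the 38 were high-sarcomere cells. Cdkn1c stood at 197 CPM in the high range. Against all Myoblasts/Progenitors and against the low range the 1 higher member was Jam2, a junctional adhesion molecule of endothelium. Of its 33 counts 87.9% lay in the 12 cells with endothelial transcripts. Myod1 was at −0.09 (−0.44 to 0.25) and −0.61 (−0.97 to −0.26). Against the 82 cells, Myod1 was the 1 higher member, at 1.02. Its direction thus depended on whether cells with a UMI of Myog, Mymk or Mymx were in the reference.

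The lists that the study gave for committed cells were picked on a collection that holds these samples and are no independent evidence of direction. Of 9 measured transcription factors 2, Myog and Scx (−1.46, −2.64 to −0.47), were lower than in all Myoblasts/Progenitors (10.1% of all genes, median −0.30). Against the low range 3 of 9 were lower and none was higher (2.75% and 1.97% of all genes, median −0.65). Of 16 measured surface genes 2 were lower, Fndc5 (−3.20, −4.53 to −2.13) and Lrrn1 (−2.53, −3.87 to −1.44), and 2 higher, Bst2 (1.02) and Clcn5 (1.11, 0.89 to 1.33), with a median of 0.31. Both counts lay near the 10.1% and 13.8% of all genes, and with TMM factors none was higher and 3 were lower (median −0.19). Against the low range none of the 16 was higher and 2 were lower (1.97% and 2.75% of all genes, median −0.43), with Clcn5 at 0.36 (0.14 to 0.58) and Bst2 at 0.30 (−0.02 to 0.62). Lrrn1, a leucine-rich repeat membrane protein, had 7 counts in MuSCs and was at −3.25 (−4.60 to −2.17) against the low range. Ncam1 and Megf10, which are on this list, were at 0.28 (0.04 to 0.52) and −0.01 (−0.36 to 0.33) there.

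Myogenic factors of the basic helix-loop-helix family bind the E-box CANNTG, so the 200 bases before the RefSeq start (GRCm38.p6) are shown for the commitment gene Myog and for 2 label markers of unlike type, Chodl and Pax7, with every CANNTG in capitals. The motif reads the same on both strands. The sequences are written 5′ to 3′ on the strand of the gene.
Myog: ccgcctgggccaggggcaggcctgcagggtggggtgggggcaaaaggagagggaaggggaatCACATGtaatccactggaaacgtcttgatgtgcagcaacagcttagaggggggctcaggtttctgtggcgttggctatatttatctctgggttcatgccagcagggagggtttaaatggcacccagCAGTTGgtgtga
Chodl: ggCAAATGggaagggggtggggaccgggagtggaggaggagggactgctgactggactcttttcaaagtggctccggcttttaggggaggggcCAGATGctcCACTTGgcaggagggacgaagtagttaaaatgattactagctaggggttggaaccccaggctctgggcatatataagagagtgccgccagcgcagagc
Pax7: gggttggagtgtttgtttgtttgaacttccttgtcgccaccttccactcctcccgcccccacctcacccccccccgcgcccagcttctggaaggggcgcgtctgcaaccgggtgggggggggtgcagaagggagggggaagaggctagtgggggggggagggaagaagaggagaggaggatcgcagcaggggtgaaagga
These windows are chr1:134289804-134290003 (plus strand), chr16:78930748-78930947 (plus strand) and chr4:139832969-139833168 (minus strand). The RefSeq starts of Pax7 and Myog lie inside the gene ranges given above. The Pax7 window therefore lies wholly, and the Myog window at its end, within those ranges. Myog held 2 E-boxes, Chodl 3 and Pax7 0. The window of the developmental sarcomere gene Actc1 (chr2:114052876-114053075, minus strand), which is not printed, held 0. Of 32851 RefSeq promoter windows of this length 58.2% held at least 1, with a median of 1, 23.4% at least 2 and 7.49% at least 3. A match describes the letters only.

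Genes of the developing sarcomere were lower in MuSCs against all Myoblasts/Progenitors and against the low range. Of 8 measured members 7 were at least 2-fold lower than in all Myoblasts/Progenitors (10.1% of all genes, median −3.67), and 6 of 7 against the low range (2.75% of all genes, median −2.15). Against the 82 low-sarcomere cells with no UMI of Myog, Mymk or Mymx only 2 members had enough counts. There 0 were at least 2-fold lower (1.26% of all genes, median −0.66). Actc1, cardiac actin of young myotubes, had 7 counts in MuSCs, 9.32 CPM against 198 CPM in the low range. It stood at 20.8 CPM in the 82 cells, on 19 counts, and at 6.35 CPM in non-myogenic cells. Tnnt1, slow troponin T, was at −2.16 (−2.68 to −1.68) and −0.77 (−1.34 to −0.23). Chrna1, the acetylcholine receptor subunit, was at 93.2 CPM, 266 CPM and 1.34 CPM, so MuSCs were above the background and below the low range. Ttn, the giant filament titin, counts among the adult genes that set the 3% cut, and it stood at 81.2 CPM in MuSCs, 574 CPM in the low range and 10.8 CPM in non-myogenic cells.

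Glycolysis and creatine genes were lower mainly against the whole reference. Of 17 members 11 were at least 2-fold lower and none higher than in all Myoblasts/Progenitors (10.1% and 13.8% of all genes, median −1.60), and 1 of 13 was lower than in the low range (2.75% of all genes, median −0.35). Pgam2, the muscle phosphoglycerate mutase, was at −6.86 (−7.99 to −5.94) and 0.13, with an interval that included no difference. Gapdh was at −2.40 (−2.58 to −2.23) and −0.62 (−0.82 to −0.42).

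Notch genes had a median log2 ratio of 0.92 against all Myoblasts/Progenitors, with 4 of 11 measured members at least 2-fold higher and none lower (13.8% and 10.1% of all genes), and 1 higher with TMM factors (median 0.41). Against the low range the median was 0.16, with 1 of 11 higher (1.97% of all genes). Against the 82 low-sarcomere cells with no UMI of Myog, Mymk or Mymx 0 of 9 were higher (1.45% of all genes, median −0.01). The largest ratio there was that of Jag1, at 0.53. Notch3, a receptor, was in 81.8% of MuSCs and 8.82% of non-myogenic cells, at 359 CPM in MuSCs, and was at 1.26 (1.03 to 1.49) and 0.50 (0.27 to 0.73). Jag1, a ligand, was at 1.84 (1.14 to 2.55) and 1.08 (0.38 to 1.79) on 38 counts. The target Heyl was at 0.93 (0.65 to 1.21) and 0.17 (−0.11 to 0.45), and Hes6 at −0.37 (−0.91 to 0.14) and −0.60 (−1.16 to −0.06). Heyl and Notch3 stood at 15 and 24.3 CPM in non-myogenic cells, so both were well above the background in MuSCs.

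Of 18 measured growth factor receptors, 8 were at least 2-fold higher than in all Myoblasts/Progenitors (13.8% of all genes), with a median of 0.85, and 1 was so with TMM factors (median 0.35). None was higher than in the low range (1.97% of all genes), where the median was 0.15. The largest ratio was that of Acvr2a, an activin and myostatin receptor, at 1.69 (1.09 to 2.30) and 0.99 (0.38 to 1.60). Met, the receptor of hepatocyte growth factor, was at 0.76 (0.33 to 1.18) and 0.01 (−0.42 to 0.43), and stood at 95.8 CPM against 3.22 CPM in non-myogenic cells. Among 9 measured receptors of midkine, 4 were at least 2-fold higher against all (13.8% of all genes), of which 2 with TMM factors, and 1, Itga6, against the low range (1.97% of all genes). All 51 Itga6 counts lay in the 12 cells with endothelial transcripts. Ptprz1, a receptor tyrosine phosphatase, was at 1.60 (0.98 to 2.21) and 0.84 (0.22 to 1.45).

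Of 10 measured cell cycle inhibitors 4 were at least 2-fold higher and 1 lower against all (13.8% and 10.1% of all genes, median 0.71), but none was higher and 3 lower with TMM factors (median 0.20). Compared with the low range, none was higher and 2, Cdkn1c and Rb1, lower (1.97% and 2.75% of all genes, median 0.37). Cdkn1b, which encodes p27, was at 1.36 (0.89 to 1.83) and 0.86 (0.37 to 1.35), and Gas1, a growth arrest gene, at 1.35 (1.12 to 1.58) and 0.59 (0.36 to 0.82). Rb1, the retinoblastoma protein, was at −1.27 (−2.26 to −0.39) against the low range on 13 counts.

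At least 2 UMIs of 20 G2 and M phase genes were held by 20 of 137 MuSCs (14.6%, 9.15 to 21.6%), 43.3% of the low range and 37.6% of non-myogenic cells. After thinning these shares were 3.03% (0.832 to 7.58%), 8.33% (4.07 to 14.8%) and 11.3%, with 6.29% of all Myoblasts/Progenitors, and averaged over all draws 2.60%, 6.79% and 11.0%. At least 2 UMIs of 18 S phase genes were held by 41.6% of MuSCs, and by 11.4% after thinning, against 9.71% of all Myoblasts/Progenitors, 14.2% of the low range and 11.0% of non-myogenic cells. Averaged over all draws the S phase shares were 12.2%, 10.7%, 15.1% and 11.5%. At equal depth the intervals of MuSCs and of the low range overlapped for both phases. Mki67, a proliferation antigen, was detected in 4.38% of MuSCs and 5.56% of non-myogenic cells, at 16.0 CPM and 20.8 CPM.

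**Figure D4:**
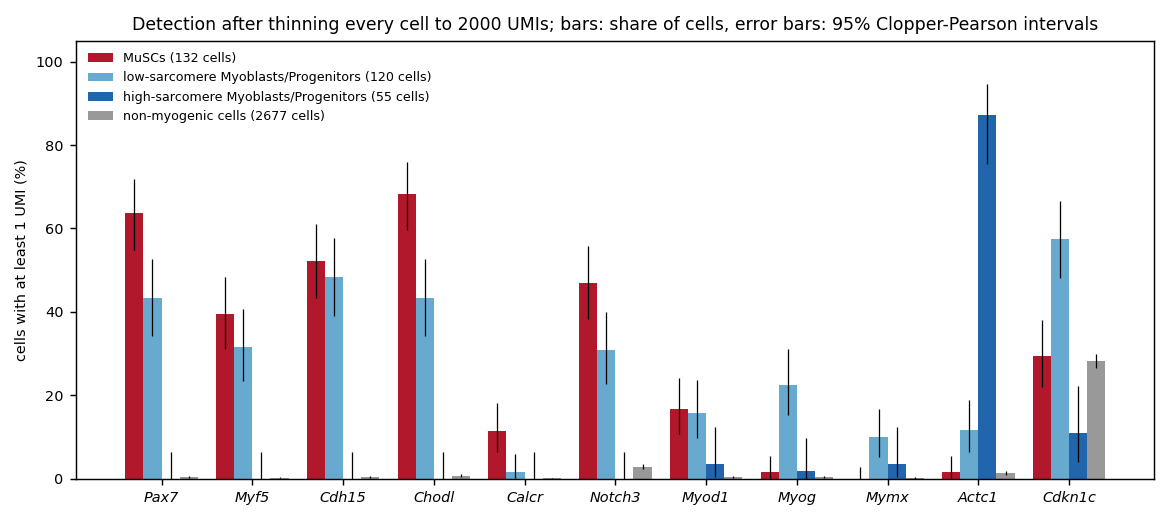
Share of cells (%) with at least 1 UMI of 11 genes after every cell was thinned to 2000 UMIs, in 132 MuSCs, 120 low-sarcomere and 55 high-sarcomere Myoblasts/Progenitors and 2677 non-myogenic cells, with 95% Clopper-Pearson intervals as error bars. Pax7 was in 63.6%, 43.3%, 0% and 0.336% of these cells, and Myog in 1.52%, 22.5%, 1.82% and 0.448%.

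Of 16 immediate early and stress genes, 13 were at least 2-fold higher than in all Myoblasts/Progenitors (13.8% of all genes, median 1.19), but 2 with TMM factors (median 0.69). None was at least 2-fold higher than in the low range (1.97% of all genes, median 0.48), where 15 had an interval wholly above 0 (9.85% of all genes). Against non-myogenic cells 3 were at least 2-fold higher and 1 lower (12% and 20.9% of all genes, median −0.03). Hspa1a, an inducible heat shock protein, stood at 5933 CPM in MuSCs, 3524 CPM in the low range and 2748 CPM in non-myogenic cells. Its counts per MuSC ran from 0 to 300 with a median of 8. Zfp36, which destabilizes cytokine messages, had the largest ratio of the list at 1.60 (1.33 to 1.87) and 0.91 (0.64 to 1.18), and Ier2 the smallest at 0.68 and −0.01. After thinning, at least 20 UMIs of the list were held by 52.3% of MuSCs, 49.2% of the low range and 53.1% of non-myogenic cells. The list is one that tissue dissociation is known to raise, and the part of that step here was not tested.

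Of 21 basement membrane and matrix genes, 10 were at least 2-fold higher and none lower than in all Myoblasts/Progenitors (13.8% and 10.1% of all genes, median 0.96), but none was higher and 1 lower with TMM factors (median 0.46). Against the low range none was higher and 1 lower (1.97% and 2.75% of all genes, median 0.21). Nid1, a basement membrane linker, was at 1.34 (0.85 to 1.83) and 0.65 (0.15 to 1.15), Col4a1 at 1.26 (1.09 to 1.43) and 0.52 (0.35 to 0.69), and Fn1, fibronectin, at −0.70 and −1.19 (−1.97 to −0.48). Non-myogenic cells held more of most of these genes, with Fn1 at 1008 CPM against 26.6 CPM in MuSCs and Col6a3 at 1199 CPM against 34.6 CPM. Lama2, the laminin chain around muscle fibers, was the other way, at 306 CPM in MuSCs and 198 CPM outside. Among integrins and adhesion genes 1 of 13 was at least 2-fold higher than in all Myoblasts/Progenitors and none lower (13.8% and 10.1% of all genes, median 0.65). The higher one was Itga6, which had 0 MuSC counts left without the 12 cells with endothelial transcripts. Compared with the low range, 1 of 13 was higher and 1 lower (1.97% and 2.75% of all genes, median −0.09), and the lower one, Cd44, a hyaluronan receptor, was at −1.07 (−1.47 to −0.69) there. Dag1, dystroglycan, was in 97.1% of MuSCs and 36.8% of non-myogenic cells, stood at 1309 CPM in MuSCs, and was at 0.09 (−0.02 to 0.20) against the low range.

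Of 9 measured imprinted genes 3 were at least 2-fold higher and 2 lower against all (13.8% and 10.1% of all genes, median 0.54; 1 and 2 with TMM factors), and none was higher and 1 lower against the low range (1.97% and 2.75%, median −0.00). Zim1 (1.56), Peg3 (1.23) and Meg3 (1.22) were the higher ones and Cdkn1c (−1.97) and H19 (−1.71) the lower ones. H19 was at 0.01 (−0.24 to 0.25) against the low range. Peg3, a zinc finger protein of MuSCs and other stem cells, was in 97.1% of MuSCs at 1424 CPM, against 22.7% and 119 CPM in non-myogenic cells. Of 9 measured genes of the insulin-like growth factor axis 4 were at least 2-fold higher and none lower against all (13.8% and 10.1% of all genes, median 0.65), 2 with TMM factors. Compared with the low range, 1 was at least 2-fold higher, Igfbp7, and 1 lower, Igfbp6 at −1.01 (−2.01 to −0.11) on 13 counts (1.97% and 2.75% of all genes, median −0.00). Igfbp5, which binds insulin-like growth factors, was at 1.34 (1.23 to 1.45) and 0.62 (0.51 to 0.73), and Igf2 at 0.20 (0.04 to 0.36) and −0.00 (−0.18 to 0.17), of which the first turns direction with TMM factors. Of 9 measured secreted regulators 3 were at least 2-fold higher and none lower against all (13.8% and 10.1% of all genes, median 0.75). In the comparison with the low range 3 of 8 were higher and 1 lower, Gdf15 at −1.65 (−2.78 to −0.67) on 10 counts (1.97% and 2.75% of all genes, median −0.02). Among the higher ones were Cxcl12, with 93.2% of its counts in the 12 cells, and Bmp4, a bone morphogenetic protein, at 1.86 (1.28 to 2.44) and 1.10 (0.52 to 1.68). Of 15 measured interferon and class I histocompatibility genes 3 were at least 2-fold higher against all (13.8% of all genes, median 0.86), 2 with TMM factors, and 1 against the low range (1.97%, median 0.18). That 1 was Irf7, which induces interferon, at 1.53 (0.82 to 2.26), and non-myogenic cells held 311 CPM of it against 57.2 CPM in MuSCs.

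**Figure D5:**
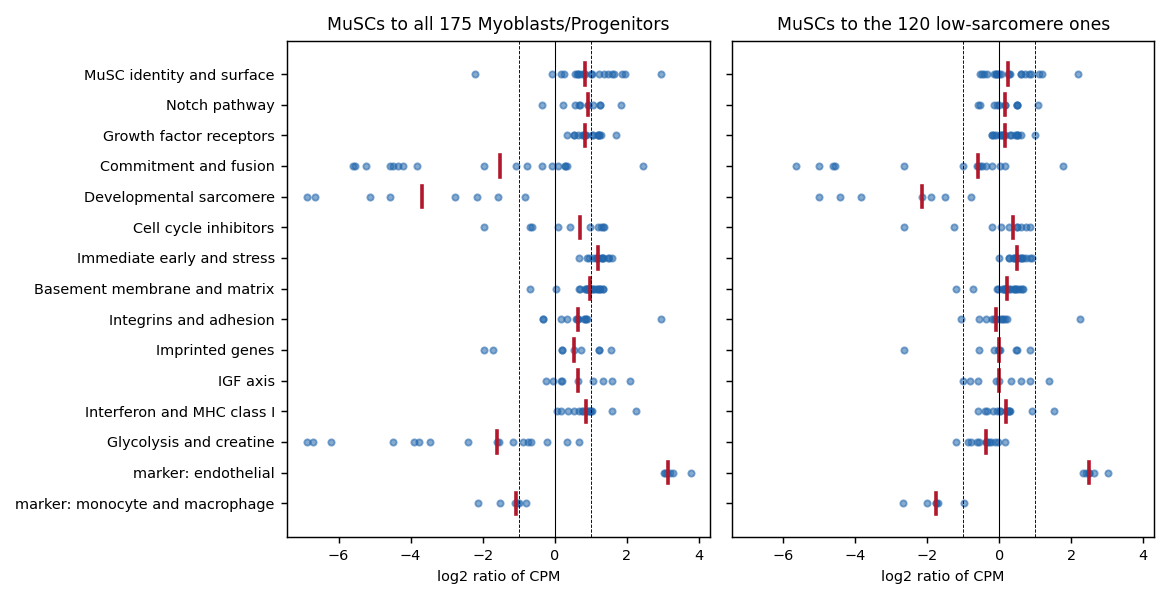
Log2 ratio of CPM of MuSCs to all Myoblasts/Progenitors (left) and to the 120 low-sarcomere ones (right), with 1 blue point per member with at least 50 counts over both sums and a red bar at the list's median, counts of 0 taken as 3 and dashed lines at a fold of 2. Medians for commitment and fusion are −1.53 and −0.60, for developmental sarcomere −3.67 and −2.15, and for Notch 0.92 and 0.16, where the median of all genes is 0.37 on the left and −0.04 on the right.

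Markers of other cell types also differed between the groups. The 6 endothelial markers summed to 1644 CPM in MuSCs and 310 CPM in the low range. Each was at least 2-fold higher against both references (13.8% and 1.97% of all genes, medians 3.16 and 2.49). The defining endothelial genes Pecam1, Cdh5 and Kdr were near 0 outside the 12 cells, where 1 of the other 125 MuSCs held at least 3 of their UMIs. These genes helped to pick the 12 cells, so this follows in part from the choice. The 8 monocyte and macrophage markers summed to 170 CPM in MuSCs, 452 CPM in the low range and 14689 CPM in non-myogenic cells. Of these, 5 of 6 measured ones were at least 2-fold lower than in the low range (2.75% of all genes). Single cells held much of some markers. For Fcer1g, the macrophage marker with the smallest ratio, 1 Myoblasts/Progenitors cell held 61.1% of that group's counts, and for the pericyte marker Rgs5 1 cell held 70.5%. Smooth muscle and pericyte markers summed to 181 CPM and 949 CPM, led by Acta2 at 153 CPM and 826 CPM. Acta2, smooth muscle actin, is also made by myoblasts. FAP markers, of the fibro-adipogenic progenitors, were found in 94.2% of MuSCs through Col3a1, but Pdgfra, Dcn and Lum reached 3 UMIs in 4 cells. The part of cells or free RNA of these types in the other lists was not tested.

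Against the non-myogenic cells, 12450 genes were compared, and 1494 (12%) were at least 2-fold higher and 2598 (20.9%) lower in MuSCs. The 12 genes with the largest ratio were Myf5, Cdh15, Pax7, Fgfr4, Chodl, Asb5, Pde1c, Iqsec3, Prox1, Megf10, Hs6st2 and Ncam1. Their log2 ratios ran from 8.02 for Myf5 to 5.43 for Ncam1, the neural cell adhesion molecule. Of these 12 genes, 4 were label markers. Asb5 was at −0.43 (−0.70 to −0.17) against the low range, Prox1, a homeobox factor, at 0.15 (−0.20 to 0.49), and Hs6st2, a heparan sulfate sulfotransferase, at 0.28 (−0.06 to 0.61). Apart from Pax7, Myf5, Chodl, Asb5 and Ncam1, each of the 12 had an interval against the low range that included no difference. None of these 12 genes separated MuSCs from the low-sarcomere range by a fold of 2 other than Chodl. Against the low-sarcomere cells with no UMI of Myog, Mymk or Mymx, Chodl was at 0.66, under that fold.

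At day 2 the table named 41 barcodes MuSCs, 21 of which passed the limits (0.661% of 3178 cells, 0.41 to 1.01%). They held 80061 UMIs in all, with 4 counts of Pax7, 8 of Myf5, 15 of Cdh15, 1 of Chodl, 40 of Myod1 and 0 of Myog. Only 4 of these 21 cells held at least 3 UMIs of the label markers, against 128 of 137 at day 7. With so few cells no comparison of levels was made, and day, mouse and library cannot be told apart.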

How the data were processed

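Whole muscle was dissociated and sequenced as single cells in 2 libraries, and only the day 7 library entered comparisons. The deposited count matrices held whole UMI counts per gene and called barcode on mm10. The file header gave Cell Ranger 3.0.1, whereas the submitters' processing notes gave Cell Ranger 3.1.0 and Seurat 3.1.5. The authors also deposited SoupX estimated counts, after subtraction of ambient RNA, which held 2.31% less for MuSCs, and an annotation table naming each cell's type. Per the study's methods doublets were removed with DoubletFinder, and no doublet caller was run here.

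Cells with at least 750 genes, 1000 transcripts and at most 30% mitochondrial reads in the SoupX values were kept, which removed 2 MuSC barcodes. Deposited counts were summed per cell type and scaled to CPM. Genes with at least 50 counts over both sums were compared by the log2 ratio of CPM, and a fold of 2 was called. Counts under 3 were taken as 3 for ranking, and counts of 0 as 3 for bounds and list medians. Intervals are at the 95% level and also do not cover amplification. Each cell was thinned once to 2000 UMIs with seed 7, and averages over all draws (hypergeometric, added after seeing the data) were also taken. Named genes were the 4 markers, the 15 largest and 15 smallest ratios and the 12 largest against non-myogenic cells, among genes with at least 100 counts in 1 group and detected in 20% of its cells, without mitochondrial, ribosomal protein and haemoglobin genes, plus members of the gene lists, of which Rian and Trbc2 were not matched. Some named genes are not reported here. The members and lists were chosen with earlier results of these data known. No column of values was left without a sample (0). Promoter windows of 200 bases came from RefSeq. Python 3.11.15, numpy 2.4.6, scipy 1.17.1, pandas 2.3.3, matplotlib 3.10.9, R 4.3.3 and edgeR 4.0.16 (TMM factors only) were used, and the ratio and interval code was tested on simulated data. Alternatives covered scaling, filters, cell limits, SoupX values and mixed cells.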

Additional observations from a re-analysis of the deposited data

Results flagged for a closer look

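Called barcodes of the day 7 library that the cell table left out also held the MuSC markers. The library had 4889 called barcodes, of which 3416 were in the table. Among those outside it, 477 passed the limits on genes, transcripts and mitochondrial reads. Of these 477, 46 had at least 3 UMIs of Pax7, Myf5, Cdh15 and Chodl together (9.64%, 7.15 to 12.7%). This compares with 29 of 2788 non-myogenic cells (1.04%), 128 of 137 MuSCs and 3 of the 25 kept cells with no type. The 46 barcodes had a median of 7135.5 UMIs and 8.5 label UMIs. Of them 6 had at least 10 endothelial-marker UMIs, 3 as many macrophage-marker UMIs, 1 as many FAP-marker UMIs and 1 was over the 3% sarcomere cut. They entered no comparison, and why they were left out of the table was not tested.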

How the results depend on the processing

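No paired analysis was possible because each time had 1 library. The counts of 914 higher and 670 lower genes became 172 and 1158 with TMM or median-of-ratios factors, 486 higher without mitochondrial and sarcomere genes in the totals, 5153 and 1115 with no filter on low counts, 566 higher by the mean over cells, 119 and 426 without cells holding at least 3 UMIs of another type's markers (10 MuSCs and 38 Myoblasts/Progenitors left), and 175 and 372 with the whole interval past the fold. With references chosen after seeing the data they were 115 and 160 against the low-sarcomere range, 1996 higher against the high range, 70 and 61 against low-range cells with no Myog, Mymk or Mymx UMI, and 58 and 134 against the low range without cells with endothelial or Pdgfra, Dcn and Lum UMIs. Higher genes were 82.2% of calls with no filter, 47.2% by the mean over cells and 21.8% without cells with another type's markers. SoupX values (964 and 664), no cell limits (922 and 674) and stricter limits (871 and 654) stayed within 1.5 times. The MuSC share was 7.74% of stromal, endothelial, mural, neural and myogenic cells. The G2 and M share of 14.6% was 3.03% thinned, 2.60% thinned over all draws, 5.11% with 1 UMI more or SoupX values and 35.0% with 1 fewer. The Pax7 share of 88.3% was 63.6% thinned, 62.0% thinned over all draws and 66.4% with 1 UMI more or SoupX values. MuSCs with at least 3 UMIs of another type's markers were 92.7%, with at least 2 UMIs 98.5%, at least 5 81.0%, SoupX values 84.7%, and by endothelial or Pdgfra, Dcn and Lum UMIs alone 13.9%. Direction turned without cells with another type's markers for Cdkn1c (0.38), H2-Aa (1.05), H2-Eb1 (3.73), Cd74 (3.79), the commitment and fusion median (0.38) and the myoblast/progenitor marker median (1.13). Most Myoblasts/Progenitors left in that setting were high-sarcomere cells. Direction also turned without cells with endothelial or Pdgfra, Dcn and Lum UMIs for C1qa (0.78), Ly6c1 (−0.054) and H2-Eb1 (0.020), and without the cell with the most counts for C1qa (0.72) and C1qb (0.21). Ly6c1 is 1 of the endothelial markers that removed cells, so its change follows in part from the choice. For the other genes and the medians the cause was not tested. Of 273 named genes 159 moved under TMM factors, 81 by the mean over cells, 33 without mitochondrial and sarcomere genes in the totals and 21 with SoupX values. Of the named genes with a value without cells with another type's markers 149 moved, 4 turned direction and 6 did neither, and without cells with endothelial or Pdgfra, Dcn and Lum UMIs 58 moved and 3 turned, where Itga6 had no value.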
